A study of Rattus norvegicus with 5 samples.

Results

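The baseline transcriptome of normal rat Müller cells was described from the 3 arrays, of 5 in the series, that the labels give as healthy animals. Each array carried total RNA of Müller cells from male Sprague-Dawley rats, with the retinas of 12 animals combined into 1 pool. Arrays 2 and 3 are labelled as biological replicates, so the 3 arrays are called pools 1, 2 and 3. The labels used here give neither the animals' age nor the way the cells were isolated. The remaining group of the series is a pool of 12 male Sprague-Dawley rats made diabetic for 6 months with streptozotocin and given small amounts of insulin. Its 2 arrays, the second a technical replicate, entered only the normalisation. With a single group described, no test between groups was made, and each value is given with its spread over the 3 pools. Precision is limited by the small number of arrays.

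Müller cells are the radial glia of the retina and span it from the inner limiting membrane to the photoreceptor layer. They take up glutamate released by neurons and convert it to glutamine. They carry potassium and water between the retina and its vessels, hydrate carbon dioxide, and supply neurons with lactate and lipoproteins. The markers used here follow those roles. Glul encodes glutamine synthetase, Slc1a3 the glutamate transporter GLAST, Car2 a cytosolic carbonic anhydrase, Aqp4 a water channel, Kcnj10 the potassium channel Kir4.1 and Hes1 a transcriptional repressor downstream of Notch.

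The chip, an Affymetrix RG_U34A, reports each transcript by 1 or more probe sets, which are groups of short oligonucleotides read as 1 signal. After quantile normalisation and a floor of 20 on the signal, the 8740 probe sets other than chip controls were ranked by their mean log2 value over the pools. A rank orders signals, which depend on the affinity of each probe set, and not transcript abundance. Of the 8740 probe sets, 7006 named 1 gene symbol and together covered 4736 genes, and a gene was represented by its brightest such probe set. The percentile given for a gene is the place of that probe set among all 8740.

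The deposited signals had medians of 40.9, 28.0 and 91.6 on the arrays of pools 1, 2 and 3 before normalisation. Pools 2 and 3 correlated at r = 0.961 over 8740 probe sets, and pool 1 correlated with them at r = 0.928 and 0.923. These r values are across probe sets of arrays normalised together, and probe sets are not independent. For actin, the control probes at the 3' and 5' ends of the transcript, whose ratio tracks how intact the RNA is, gave 2.61 in pool 1, 1.52 in pool 2 and 1.46 in pool 3, while the same ratio of GAPDH lay between 1.03 and 1.24. Each of the 3 arrays came from a chip lot of its own and was hybridised on a day of its own. Differences between pools therefore cannot be told apart from differences between lots or days.

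The 300 brightest probe sets held 41.7% of the summed normalised signal, and their median was 10.88 log2 units against 5.82 over all probe sets. They were 194 probe sets with 1 symbol, which stood for 146 genes, 44 with several symbols and 62 with none. Of these 300, 234 were also among the 300 brightest of every pool taken alone. At the foot of the group were probe sets of Cryab, Lipa and Psme1, with means of 10.18, 10.16 and 10.15, and just outside it were Gabarap (10.14), Il33 (10.13) and a probe set of Eif4a2 (10.12). The floor, 4.32 on the log2 scale, was reached in all 3 pools by 1688 probe sets, 19.3% of those ranked. Highest and lowest pool lay at least 2-fold apart for 28 of the 300 (9.33%), against 22.9% of all 8740 probe sets. That count was 91 with the arrays scaled to a common median and 287 on the deposited values without scaling. It was 10 without pool 1, 17 without pool 2 and 21 without pool 3. A range over 2 pools can hardly exceed one over 3, so a lower count was built into leaving a pool out.

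**Figure D1:**
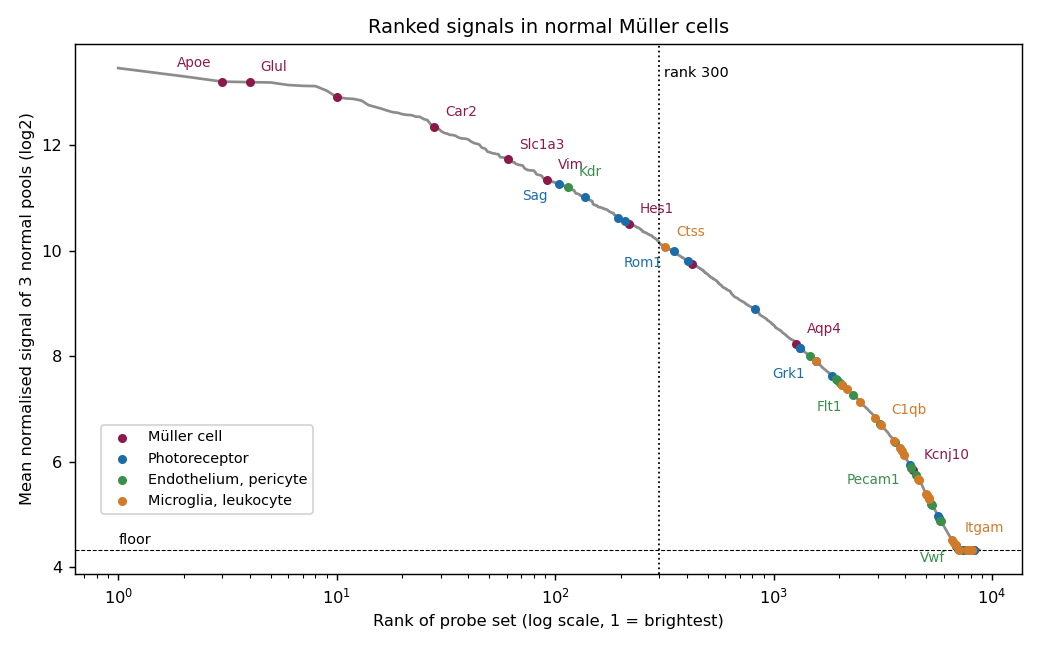
Mean normalised signal (log2, mean of 3 pools) of 8740 probe sets against rank on a log axis, with the genes of 4 marker lists as coloured points and a dotted line at rank 300. Apoe and Glul lie at ranks 3 and 4 and Aqp4 at rank 1269, while Vwf and Itgam lie near the floor.

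Müller cell markers took the first 3 places among genes with a single symbol. Apoe, the apolipoprotein through which glia export lipid, had rank 3, with 13.09, 13.34 and 13.19 in pools 1, 2 and 3 (log2 signal, mean 13.21 ± 0.13, SD, n = 3). Glul followed at rank 4 with 12.88, 13.19 and 13.53 (mean 13.20 ± 0.32, SD, n = 3). The pools of Glul spread over 0.65 log2 units on that probe set, with pool 3 highest. The other 3 Glul probe sets had ranks 26, 38 and 47. Those at rank 26 (12.55, 12.53 and 12.36) and rank 38 (12.53, 11.80 and 12.06) were highest in pool 1. The probe sets of Glul thus did not order the pools alike. Clu, encoding the secreted chaperone clusterin, stood at rank 10 with 12.66, 12.92 and 13.17.

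Car2 lay at rank 28 with 12.15, 12.33 and 12.55 in the 3 pools (mean 12.35 ± 0.20, SD, n = 3). Slc1a3 lay at rank 61 with 11.59, 11.69 and 11.92 (mean 11.73 ± 0.17, SD, n = 3). On their brightest probe sets both genes were lowest in pool 1 and highest in pool 3, as were Glul and Clu. The second Car2 probe set, at rank 241, was lowest in pool 2, and the Slc1a3 probe set at rank 353 was highest in pool 2. The 4 probe sets of Slc1a3 reached from rank 61 down to rank 5490, where the mean was 5.07, so the gene's place depends on which probe set is read. Vim, the intermediate filament protein vimentin, had rank 92 with 11.30, 11.11 and 11.61. Hes1 had rank 218 and nearly level pools, at 10.46, 10.60 and 10.48.

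Aqp4 and Kcnj10, both tied to the end feet of Müller cells on vessels, ranked far below the metabolic markers. Aqp4 measured 7.78, 8.40 and 8.52 (mean 8.23 ± 0.40, SD, n = 3), which gave it rank 1269 and a percentile of 85.5. Its single probe set was lowest in pool 1. Kcnj10 measured 5.85, 5.38 and 6.30 (mean 5.84 ± 0.46, SD, n = 3) at rank 4341, and its second probe set was at the floor in pools 1 and 2 and at 5.64 in pool 3. The potassium channel gene Kcnj2 was at the floor in every pool, the sulfonylurea receptor gene Abcc8 left it only in pool 1, at 4.54, and the growth factor receptor gene Egfr was at the floor in pool 1 and at 5.30 and 5.18 in pools 2 and 3. A low signal on a single probe set is not evidence that the transcript was absent.

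Of the 18 Müller cell markers listed, 13 had a probe set with 1 symbol, and 7 of those 13 were among the 300 brightest, against 146 of all 4736 genes (3.08%). Their median percentile was 97.5 ± 0.18 (SD of the medians of the 3 pools), beside 56.6 for all genes. It was 91.5 when the probe sets of each gene were averaged. Rlbp1, Dkk3, Sox9, Car14 and Gpr37 had no probe set with 1 symbol and were not analysed here. Of the 6 markers given for these cells, Glul, Car2, Slc1a3 and Hes1 were among the 300 brightest and the channel genes Aqp4 and Kcnj10 were not. The summed normalised signal of the 13 genes was 35421, 41007 and 46279 in pools 1, 2 and 3, with 8 of the 13 highest in pool 3 and 8 lowest in pool 1. Over all 4736 genes 26.9% were highest in pool 3 and 30.3% lowest in pool 1.

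Genes shared with astrocytes were spread more widely. Aldoc, a brain form of the glycolytic enzyme aldolase, had rank 29 with 12.18, 12.31 and 12.50. Ndrg2, a differentiation-related gene of astroglia, had rank 113 with 11.35, 10.97 and 11.33, and S100b, a calcium-binding glial protein, rank 220 with 10.89, 10.11 and 10.51. Those 3 were the genes of the astrocyte and reactive glia list among the 300 brightest, of 12 measured (25%, against 3.08% of all genes). The list had a median percentile of 80.4. Cp, the copper-carrying ferroxidase ceruloplasmin, followed at rank 804 and Cd44, a hyaluronan receptor, at rank 934. The gap junction gene Gja1 was at the floor in all pools. Gfap, the filament protein of reactive glia, had no probe set with 1 symbol.

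Photoreceptor transcripts were the second cell type with genes among the 300 brightest in number. Sag, encoding rod arrestin, had rank 104 with 11.82, 11.62 and 10.38 in pools 1, 2 and 3 (mean 11.27 ± 0.78, SD, n = 3). Prph2, a tetraspanin of outer segment discs, had rank 137 with 11.17, 11.70 and 10.20 (mean 11.02 ± 0.76, SD, n = 3). In both, pool 3 was the low one, by 1.34 and 1.23 log2 units from the mean of the other pools. The second Sag probe set, at rank 180, also had its lowest value in pool 3 (11.50, 10.53 and 10.15).

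Unc119, a carrier of lipid-modified proteins in photoreceptors, measured 10.87, 10.67 and 10.35 at rank 194. Gnb1, a G protein beta subunit found in rods and in many other cells, measured 11.04, 10.60 and 10.06 at rank 209. Rom1, the partner of Prph2 in disc rims, lay just outside the 300 at rank 348, with 10.70, 10.13 and 9.15. In all 3 genes the order was the same, with pool 1 highest and pool 3 lowest. Over the 17 photoreceptor genes measured, of 34 listed, 12 were lowest in pool 3 (70.6%, against 24.8% of all genes), and the median difference of pool 3 from the mean of the other pools was -0.76 log2 units. Of these genes 10 (58.8%) had a range of at least 2-fold, against 1098 of all 4736 genes (23.2%).

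The summed signal of the 17 genes was 15027, 13911 and 7496 in pools 1, 2 and 3. Pool 3 thus had the lowest photoreceptor sum and the highest Müller cell sum. Of the Müller cell sum of 46279 in pool 3, Glul, Apoe and Clu gave 11797, 9373 and 9188. The Glul probe sets at ranks 26 and 38, which do not enter the sum, were highest in pool 1. Low values of pool 3 were not confined to photoreceptor genes. Pool 3 was lowest for 62.5% of endothelial and pericyte genes, 54.5% of crystallin and lens genes and 40% of inner retinal neuron genes. It was also lowest for all 4 erythrocyte genes. Among microglial and leukocyte genes the share was 23.1%, near the 24.8% of all genes. In pooled cells, fewer cells of a type and less RNA per cell cannot be told apart. Gnb3, the beta subunit of cone transducin, had the reverse order of pools from Sag, Unc119, Gnb1 and Rom1, with 7.18, 8.60 and 8.69. Whether its signal came from cones was not tested. The cone opsin genes did not follow the order of Gnb3. Opn1sw, at rank 1847, measured 8.19, 7.17 and 7.54, and Opn1mw, at rank 1952, measured 7.40, 7.84 and 7.40. Cone arrestin, Arr3, and the signalling regulator Rgs9 were at the floor in every pool. The list's median percentile was 84.9, and its pool medians were 86.4, 88.2 and 76.8. The part that photoreceptor RNA has in other differences between pools was not tested.

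**Figure D2:**
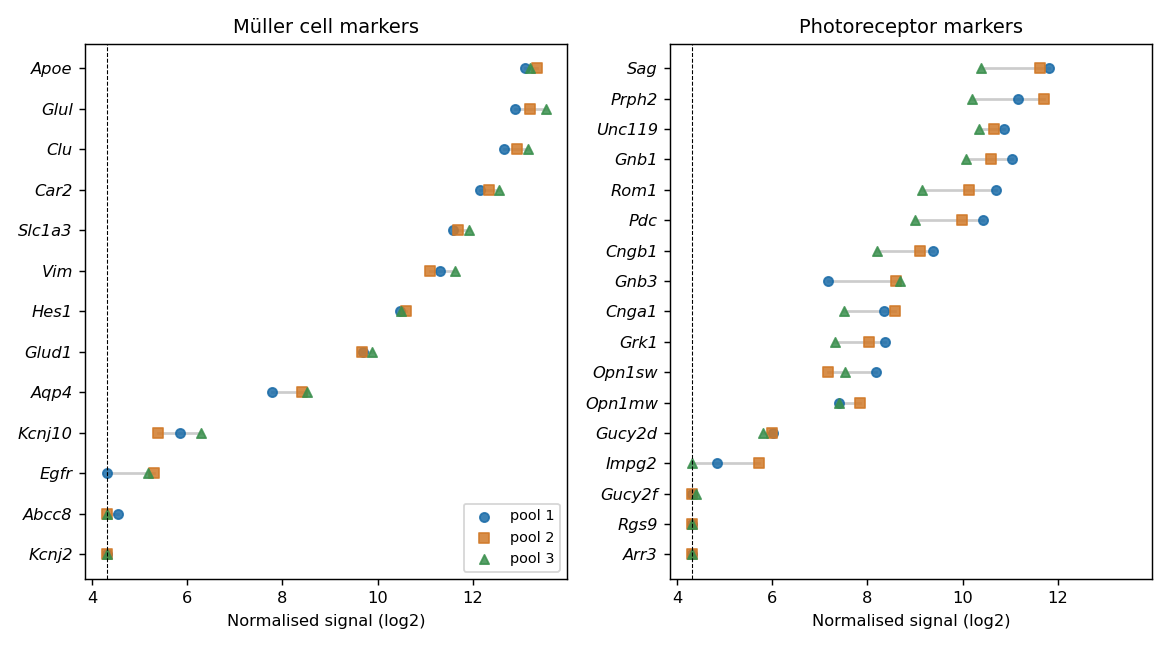
Normalised signal (log2) of 13 Müller cell markers and 17 photoreceptor markers, each gene by its brightest probe set, with a symbol for each of the 3 pools and a dashed line at the floor. Pool 3 (triangles) is lowest for 12 of the 17 photoreceptor genes and highest for 8 of the 13 Müller cell genes.

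None of the 35 inner retinal neuron markers measured was among the 300 brightest, beside 3.08% of all genes. The highest was Vamp2, a synaptic vesicle protein, at rank 374 with 10.06, 10.003 and 9.65. Mapt, encoding the microtubule protein tau, had rank 604, the granule protein gene Scg2 rank 695 and Map2, of dendritic microtubules, rank 859. Syp, the vesicle protein synaptophysin, had rank 864 with 8.51, 9.04 and 8.82. The median percentile of the list was 62.7 ± 8.69 (SD of the medians of 3 pools), beside 56.6 for all genes. Here pool 2 stood out, with 17 of the 35 genes highest in it (48.6%, against 23.2% of all genes) and a pool median of 73.4 against 60.6 in pool 1 and 56.8 in pool 3. The ganglion cell marker Sncg, a synuclein, measured 4.37, 7.23 and 4.32, so it was at or near the floor in pools 1 and 3 and clear of it in pool 2. Nrgn, Syn2 and Vip were at the floor in all pools.

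Of 16 endothelial cell and pericyte markers measured, 1 (6.25%) was among the 300 brightest, against 3.08% of all genes. Kdr, the receptor VEGFR-2 through which VEGF acts, had rank 114 on its single probe set, with 11.46, 11.01 and 11.17 in the 3 pools (mean 11.21 ± 0.23, SD, n = 3). The next gene of the list, the transporter gene Slco1a4, followed only at rank 1465 with 8.56, 8.12 and 7.32. Nos3, endothelial nitric oxide synthase, had rank 1925, the peptidase gene Anpep rank 2005 and Flt1, the other main VEGF receptor, rank 2301 with 7.38, 7.48 and 6.95. Pecam1, a junction protein of endothelium, measured 6.58, 5.63 and 5.46. Von Willebrand factor, Vwf, was at the floor in pools 2 and 3 and at 4.56 in pool 1, and desmin, Des, was at the floor throughout. Kdr thus ranked above the other 15 measured genes of its list, and the median percentile of all 16 was 51.2. In 12 of the 16 genes (75.0%) pool 1 was highest, against 35.5% of all genes. In 10 of them (62.5%) pool 3 was lowest, against 24.8% of all genes. The list's summed signal was 4542, 3413 and 3334.

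No microglial or leukocyte marker was among the 300 brightest, of 26 measured, beside 3.08% of all genes. Ctss, encoding the lysosomal protease cathepsin S, had rank 319 with 9.90, 10.30 and 10.02. The complement gene C1qc followed at rank 1554, the chemokine gene Ccl3 at rank 2059, the class II gene RT1-Ba at rank 2064 and the chemokine gene Ccl4 at rank 2169. The complement gene C1qb measured 5.30, 7.35 and 7.46, and the leukocyte phosphatase gene Ptprc 7.54, 5.71 and 5.93, so pool 1 was low for the former and high for the latter. Csf1r, Cd2, Cd3d and Cd8a, the growth factor receptor of microglia and 3 T cell genes, were at the floor in all pools. The list had a median percentile of 47.3 ± 3.04 (SD of the medians of 3 pools), below that of all genes, and summed signals of 2837, 3355 and 2846.

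Markers of pigment epithelium, erythrocytes and lens had 1 gene, Cryab, among the 300 brightest. It was 1 of 11 crystallin and lens genes (9.09%), against 3.08% of all genes. Of the 3 pigment epithelium genes measured, Ttr, encoding transthyretin, measured 6.84, 6.89 and 6.34, and Rpe65, the retinoid isomerase that defines that epithelium, was at the floor in all pools. Haemoglobin was read by 2 probe sets that the chip marks as shared within a gene family, named Hbb and Hbb-b1. Hbb measured 8.58, 9.37 and 8.10 and Hbb-b1 8.86, 8.68 and 8.07, with pool 3 lowest in both. Cryab, a small heat shock protein of glia as well as lens, had rank 219 with 10.60, 10.39 and 10.54. The crystallin genes Cryaa and Crybb2 followed at ranks 1657 and 1782, and the lens channel gene Mip at rank 2340. The crystallin list had a median percentile of 44.8, with Crygc and Bfsp1 at the floor.

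**Figure D3:**
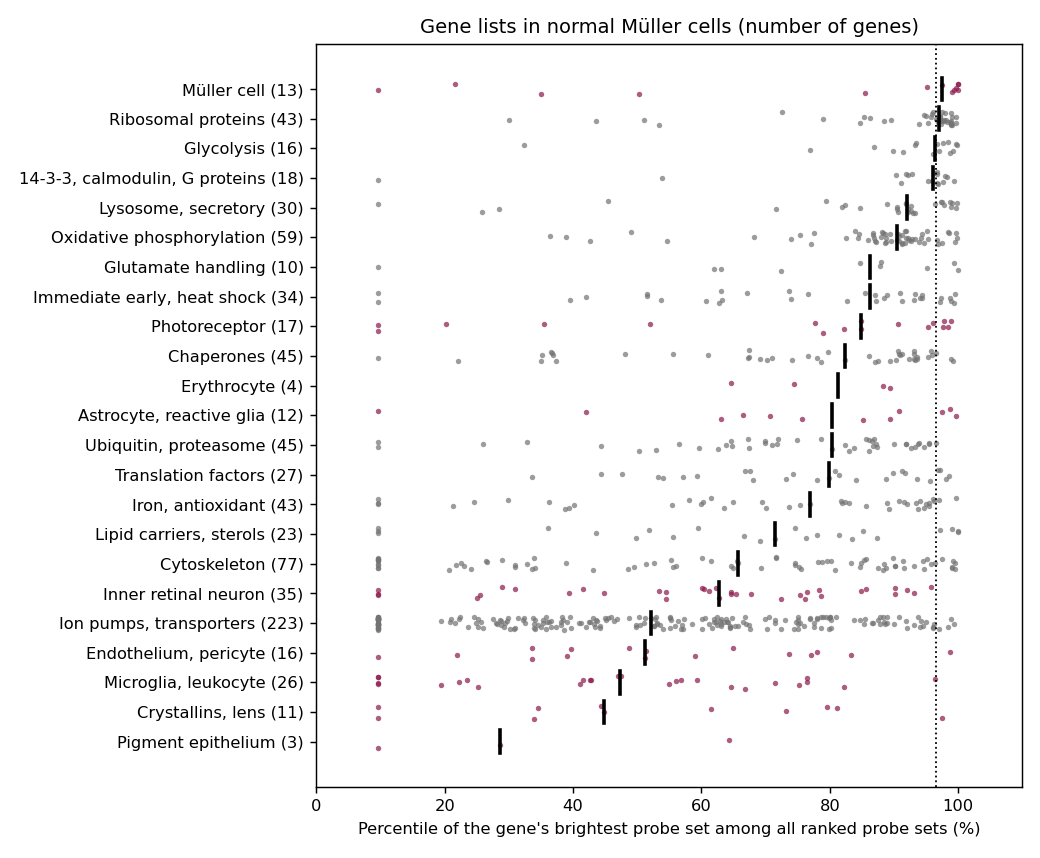
Percentile of each gene's brightest probe set among 8740 for 23 gene lists, 1 point per gene, with the number of genes in brackets, a bar at the list median, cell type lists in dark red and functional lists in grey. The dotted line marks rank 300. Müller cell markers have a median of 97.5 and microglial and leukocyte markers 47.3.

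Enzymes of glycolysis and the glucose transporter gene were among the brightest signals. Eno1, encoding enolase, had rank 12 with 12.62, 12.88 and 13.14, and Pkm, pyruvate kinase, rank 76 with 11.52, 11.67 and 11.39. Pgam1, a phosphoglycerate mutase, lay at rank 108 and Pgk1, phosphoglycerate kinase, at rank 147 with 10.94, 10.96 and 10.93. The glucose transporter gene Slc2a1 had rank 269 with 10.60, 9.98 and 10.34, and the lactate transporter gene Slc16a1 lay outside at rank 350. In all, 8 of 16 genes of the list (50%) were among the 300 brightest, against 3.08% of all genes. The list's median percentile was 96.3. Its median range over the pools, 0.30 log2 units, was below the 0.55 of all genes. Pgam2, the muscle form of the mutase, was lowest and left the floor only in pool 1, at 5.83.

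Oxidative phosphorylation was led by subunits encoded in the mitochondrial genome. COX1, a catalytic subunit of cytochrome c oxidase, had rank 15 with 12.83, 12.83 and 12.53, and COX3 rank 25 with 12.72, 12.36 and 12.42. COX2 had rank 50 and unequal pools, at 12.58, 11.44 and 11.60, so pool 1 lay 1.06 log2 units above the mean of the other pools. Among nuclear genes Cox4i1, a structural subunit of the same enzyme, lay at rank 127 and Cox8a at rank 135. The list placed 8 of 59 genes (13.6%, against 3.08% of all genes) among the 300 brightest and had a median percentile of 90.5. Pool 1 was lowest for 38 of the 59 (64.4%), against 30.3% of all genes, with a median difference of -0.18 log2 units, beside that pool's actin ratio of 2.61, whose part in the result was not tested. Cox5a was its lowest gene, at rank 5566. Ckb, brain creatine kinase, which buffers ATP, had rank 18 with 12.49, 12.70 and 12.70.

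Lysosomal and secreted proteins formed a further bright group. Cst3, the secreted protease inhibitor cystatin C, had rank 20 with 12.45, 12.49 and 12.83. Psap, the precursor of the saposins that aid breakdown of sphingolipids, had rank 33 with 12.06, 12.06 and 12.47 on its brightest probe set. Atp6v0c, a subunit of the proton pump of lysosomes, lay at rank 91, the matrix glycoprotein gene Sparc at rank 101 and the tetraspanin gene Cd9 at rank 118. Together 8 of 30 genes of the list (26.7%), with 15 probe sets, were among the 300 brightest, against 3.08% of all genes. The median percentile was 92.0. Ctsk, cathepsin K, was at the floor. Among lipid genes, Apoe and Clu were followed by the desaturase gene Scd2 at rank 84, with 11.71, 11.18 and 11.43, and by Dbi, an acyl-CoA binding protein, at rank 249. The list's median percentile was 71.5, and Fabp4, a fatty acid binding protein of adipocytes, was at the floor.

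Of 10 genes of glutamate handling, Glul and Slc1a3 were the 2 among the 300 brightest (20%, against 3.08% of all genes). The other uptake transporter genes were not among them. Slc1a2 had its brightest probe set at rank 3227, with 7.25, 6.41 and 6.17, and Slc1a1 at rank 3324, with 6.32, 6.98 and 6.36. After Glul and Slc1a3 came Glud1, glutamate dehydrogenase, at rank 425 with 9.68, 9.67 and 9.89. The aminotransferase genes Got1 and Oat lay at ranks 1049 and 1071. Slc1a6, a neuronal glutamate transporter gene, was at the floor in every pool. Of the 223 ion pump, channel and transporter genes measured, 4 were among the 300 brightest, a share of 1.79% against 3.08% of all genes. These were Slc1a3, the mitochondrial ATP/ADP carrier gene Slc25a4 at rank 103 (10.95, 11.24 and 11.64), the sodium pump subunit gene Atp1b3 at rank 140 and Slc2a1. The transporter list's median percentile was 52.1, and 32 of its genes were at the floor in all pools.

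Ribosomal protein genes were the list with the most of the 300 brightest, with 29 probe sets of 24 genes, out of 43 genes measured. That was 55.8% of the list, against 3.08% of all genes. Rps29 had rank 32 with 11.95, 12.29 and 12.43, Rpl19 rank 79 with 11.34, 11.64 and 11.59, and Rpl27a rank 87 with 11.29, 11.54 and 11.42. A probe set named Rpl19l4 had rank 36 and the opposite order of pools, at 12.76, 11.95 and 11.75. Ribosomal proteins have many processed copies in mammalian genomes, so the probe sets cannot be assigned to a single locus with certainty. The median percentile of the list was 97.0. In 28 of the 43 genes (65.1%) pool 1 was lowest, against 30.3% of all genes, with a median difference of -0.19 log2 units. The lowest was Rps2-ps1, a pseudogene by its symbol, at rank 6116. Translation factors were led by Eef2 (rank 124), Eef1a1 (rank 165) and Eif4a2 (rank 243), and 4 of 27 (14.8%) were among the 300 brightest.

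Vertebrate ribosomal protein genes typically start transcription within a run of pyrimidines. In RefSeq promoter windows of rat assembly GRCr8, the letters CTTTC or CTTTT were searched on the transcript strand within 20 bases either side of the start. They were present in 61.1% of the 36 windows of ribosomal protein genes, in 65.0% of the 20 windows of those among the 300 brightest and in 7.47% of the 4191 windows of all measured genes matched. The 15 bases before and after the start are shown for 3 of the bright genes, with matches in capitals. Rpl19 is at chr10:83519049-83519078 on the plus strand, Rpl31 at chr9:49143096-49143125 on the plus strand and Rps15 at chr7:10068101-10068130 on the minus strand.
Rpl19: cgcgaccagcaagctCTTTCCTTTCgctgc
Rpl31: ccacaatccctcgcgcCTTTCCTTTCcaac
Rps15: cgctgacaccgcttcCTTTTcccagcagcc
In Rpl19 and Rpl31 the match occurs back to back as a repeat at the start, whereas Rps15 has a single match. Rpl31 had rank 102, with 11.33, 11.20 and 11.33 in the 3 pools. A match is a description of these letters and does not show how the genes are controlled.

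Of cytoskeletal genes 6 of 77 (7.79%) were among the 300 brightest, against 3.08% of all genes. Actb, beta-actin, had rank 46 with 11.92, 12.18 and 11.78, and Tuba1b, an alpha-tubulin, rank 51 with 11.56, 11.86 and 12.15. Actg1, gamma-actin, had rank 68 with 11.12, 11.96 and 11.81. Its single probe set is marked as shared within a sequence family, so the signal cannot be assigned to Actg1 with certainty. Tmsb4x, the actin-binding thymosin beta-4, had rank 86 with 11.36, 11.39 and 11.54. The list's median percentile was 65.7, with 10 genes, among them Kif27, at the floor. Signalling adaptors were brighter as a group. Among the 300 were 8 of 18 genes (44.4%), against 3.08% of all genes. The list of 14-3-3 proteins, calmodulins and G proteins had a median percentile of 96.0. Gnas, encoding the stimulatory G protein alpha subunit, led it at rank 60 with 11.48, 11.78 and 11.95, followed by Gnai2 at rank 160 and Pebp1 at rank 185. Camk2a, a kinase of neurons, was at the floor.

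Among chaperones, the cytosolic Hsp90ab1 had rank 66 with 11.42, 11.85 and 11.67, and 2 of 45 genes (4.44%) were among the 300 brightest, against 3.08% of all genes. Probe sets with several symbols entered no list count. Those naming Hspa8 (ranks 59 and 71) and Hsp90aa1 (rank 62) beside other symbols were thus left out. The endoplasmic reticulum chaperone gene Calr lay outside, at rank 306. The ubiquitin and proteasome list, with 45 genes, had Psme1, an activator subunit of the proteasome, at rank 300 with 10.62, 10.17 and 9.66. Its median percentile was 80.3. Of 43 iron and antioxidant genes, Gsta1 and Gpx4 (4.65%) were among the 300 brightest, against 3.08% of all genes. That share does not count probe sets naming the iron storage genes Ftl1 (ranks 110 and 166) and Fth1 (rank 144) beside other symbols. Gsta1, a glutathione transferase read by a probe set shared within its family, had rank 37 with 12.20, 12.02 and 12.18, and Gpx4, which reduces lipid peroxides, rank 257 with 10.09, 10.46 and 10.50.

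Immediate early genes are transcribed within minutes of a stimulus. Several of them, and of the heat shock genes listed with them, were bright in these normal cells. Fos, a subunit of the factor AP-1, had rank 41 with 11.73, 12.30 and 12.20 (mean 12.08 ± 0.30, SD, n = 3), and its 3 probe sets were all among the 300 brightest. Egr1, a zinc finger factor, had rank 54 with 11.10, 12.27 and 12.12 (mean 11.83 ± 0.64, SD, n = 3). Hspa1a, the inducible form of Hsp70, had rank 98 with 11.20, 11.18 and 11.52. Jun, the partner of Fos, had rank 111 with 10.61, 11.52 and 11.55, and its other 3 probe sets, at ranks 576, 896 and 2430, were also lowest in pool 1. On these probe sets of Fos, Egr1 and Jun, pool 1 was the low pool. The Egr1 probe sets at ranks 172 and 1646 were also lowest in pool 1, but the one at rank 421 measured 9.76, 9.81 and 9.73, a range of 0.08.

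Junb had rank 233 with 10.27, 10.89 and 10.22, and there pool 2 was the high pool. Of the 34 genes of the list, 6 (17.6%) were among the 300 brightest, with 10 probe sets, against 3.08% of all genes. The median percentile was 86.2. Chaperone genes such as Hspa5 and Hspd1 are in the list, so its figures are not those of immediate early genes alone. Pool 2 was highest for 22 of the 34 and pool 1 lowest for 19, and the median differences from the other pools were -0.43, 0.52 and -0.02 log2 units in pools 1, 2 and 3. Over all 4736 genes pool 2 was highest for 23.2% and pool 1 lowest for 30.3%. A range of at least 2-fold was found for 16 of the 34 (47.1%), against 23.2% of all genes. Klf6, a zinc finger factor, had the widest gap of those named, with 4.49, 8.14 and 7.14. Egr3, a relative of Egr1, was at the floor in all pools, and the summed signal of the list was 18886, 29147 and 24818.

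The serum response factor, with its partners, drives immediate early and actin genes through a sequence known as the CArG box. That box, a 10-base motif, was searched, on either strand, in the windows from 250 bases before to 50 bases after the start. It was present in 14.8% of the 27 windows of immediate early and heat shock genes and in 1.74% of the 4191 windows of all measured genes. Of the 139 windows of genes among the 300 brightest, 3 held it (2.16%), those of Egr1, Actg1 and Igf2. That share was near the 1.74% of all windows, so the box did not set the bright genes apart. Stretches of 60 bases are shown for Egr1 and Actg1, with the box in capitals. The pair was chosen after values were seen, and both genes were lowest in pool 1 on the brightest probe set. That of Actg1 is shared within its sequence family, so its values may not be those of Actg1 alone. The stretch of Egr1 is chr18:26736958-26737017 on the plus strand and that of Actg1 chr10:106121012-106121071 on the minus strand.
Egr1: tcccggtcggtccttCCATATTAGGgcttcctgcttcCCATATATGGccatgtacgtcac
Actg1: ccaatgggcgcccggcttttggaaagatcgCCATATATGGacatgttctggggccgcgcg
The boxes of Egr1 begin 105 and 83 bases before the start, and the box of Actg1 begins 90 bases before it. Igf2, whose stretch is not shown, was lowest in pool 2, with 11.60, 11.37 and 11.77. The second box of Egr1 and the box of Actg1 are spelled alike. Fos and Jun are named only. These matches were not tested against the values of the pools.

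Other motifs set the bright genes apart by little. The letters TATAAA, on either strand, were in 14.4% of the 139 windows of bright genes and 11.3% of all windows, and TGACGTCA, the palindrome bound by CREB, in 3.60% and 2.43%. The median GC content was 62.3% and 59.7%, and the median number of CpG dinucleotides in 300 bases was 22 and 18. Photoreceptor genes had a median of 5 CpG dinucleotides over 15 windows. The windows are those of the 120 bright genes and 3871 genes in all that RefSeq matched by symbol.

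**Figure D4:**
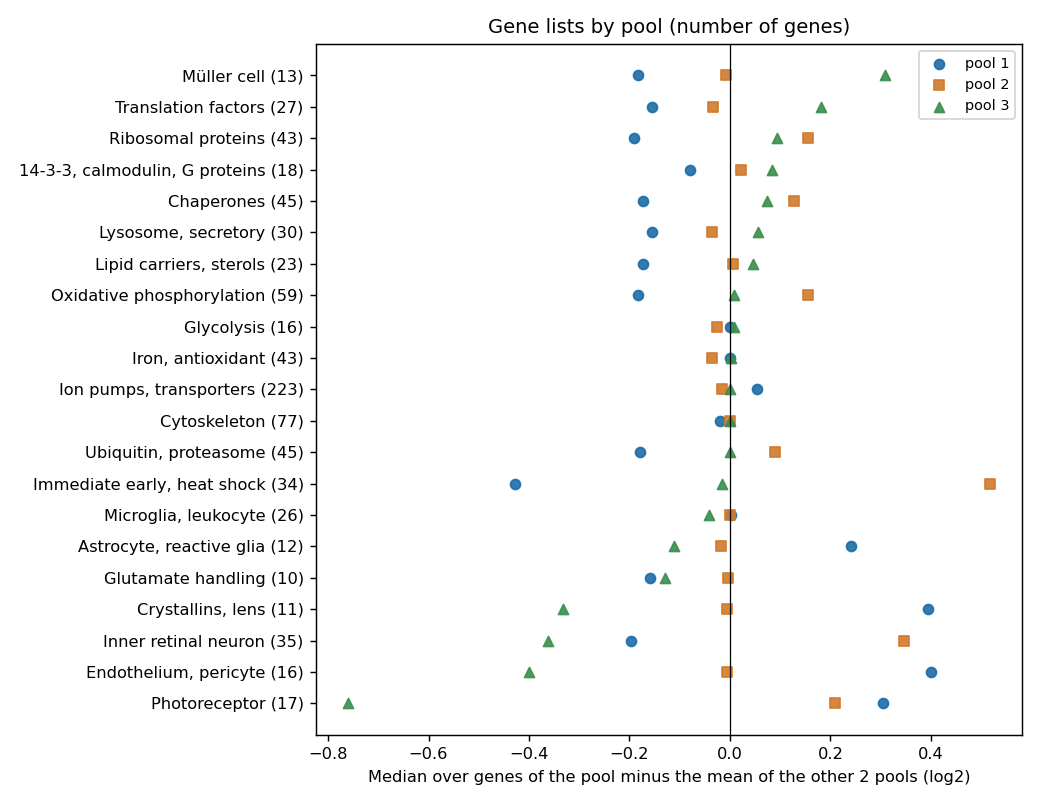
For each gene list with at least 5 genes, the median over its genes of a pool's log2 value minus the mean of the other 2 pools, with a symbol for each pool and the number of genes in brackets. Photoreceptor genes lie lowest in pool 3 (-0.76), and immediate early and heat shock genes lie lowest in pool 1 (-0.43) and highest in pool 2 (0.52).

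The median range over the pools was 0.41 log2 units for the 300 brightest and 0.52 for all probe sets. Of the next 700 probe sets, ranks 301 to 1000, 77 (11%) had a range of at least 2-fold, against 22.9% of all probe sets. Pool 1 had the most single departures. It lay above both other pools by at least 0.5 log2 units for 22 of the 300, against 13.1% of all probe sets, and below both for 20, against 11.4%. Pool 2 lay above both others for 7 of the 300 (5.63% of all) and below both for 7 (4.9% of all). Pool 3 lay above both for 1 (5.93% of all) and below both for 10 (5.31% of all). All these shares among the 300 were below those over all probe sets, many of which lie near the floor.

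Probe sets that stood high in pool 1 named genes of several groups. Crp, the acute-phase C-reactive protein, measured 11.97, 10.66 and 10.29 on a probe set at rank 142 and 12.13, 11.01 and 10.57 on another at rank 109. Both are marked as shared within a sequence family, and the third Crp probe set, which is not, measured 4.80, 5.88 and 5.32 at rank 5077, so the signal of the first pair cannot be assigned to Crp with certainty. A probe set without a symbol at rank 78, its name starting with M13100, had a like profile, with 12.42, 11.29 and 10.86. Whether it and the pair read the same sequence was not tested. Oaz2, an inhibitor of ornithine decarboxylase, measured 12.50, 11.52 and 11.50. One probe set of Eef2, at rank 248, measured 11.06, 10.21 and 9.92, while the brightest of that gene, at rank 124, was lowest in pool 1, at 10.91, 11.33 and 11.03. Flot1, a membrane raft protein, measured 11.08, 10.35 and 10.17.

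Genes that stood low in pool 1 were, besides Egr1, Jun and Actg1, the ribosomal protein genes Rps16, with 10.73, 11.61 and 11.41, and Rps3, with 9.81, 10.65 and 10.41 on the probe set at rank 276. For Actg1, read by a probe set shared within its sequence family, and Actb the order of pools differed, since Actb was lowest in pool 3. The low Actg1 value of pool 1 stands beside that pool's actin ratio of 2.61, and the part of RNA integrity in it was not tested.

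Pool 2 was the low pool for 3 membrane or secreted proteins. Psap measured 11.32, 9.47 and 11.25 on a probe set at rank 186, the largest range of any named gene among the 300, and 10.75, 9.74 and 11.14 on another at rank 213. Its brightest probe set, at rank 33, had equal values in pools 1 and 2. Sparc measured 10.79, 9.88 and 11.09 on a probe set at rank 201, and its brightest probe set had a range of 0.22. Cd82, a tetraspanin, measured 10.35, 9.78 and 10.81. In Psap and Sparc the difference thus belonged to some probe sets of the gene and not to others. Prph2 and Junb were the genes by which pool 2 stood highest, by 1.01 and 1.09 log2 units from the mean of the other pools.

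Pool 3 stood low by Sag, Prph2, Tulp1 and Gnb1. Tulp1, which is needed for protein transport in photoreceptors and was not on the marker list, measured 10.65, 10.61 and 9.72. By Car2 on its second probe set pool 3 stood high, with 10.40, 10.09 and 10.81, and by Slc25a4 it stood 0.54 log2 units above the mean of the other pools. Crp, Psap, Sparc, Eef2 and Egr1 are among the genes named here with another probe set that did not share the pattern.

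**Figure D5:**
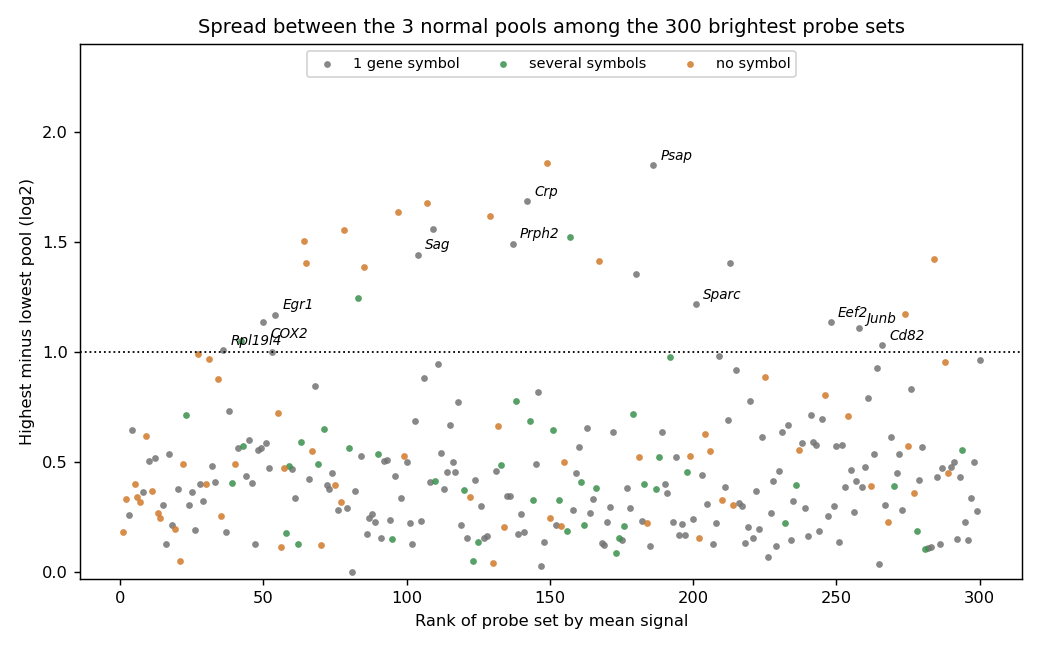
Highest minus lowest pool (log2) of the 300 brightest probe sets against rank, coloured by whether a probe set names 1 gene symbol, several or none, with a dotted line at a 2-fold range. Of the 28 probe sets at or above the line, 14 name 1 gene, 3 several and 11 none, and Psap has the largest range of those named.

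Probe sets of a gene often differed in brightness. Among the 146 bright genes 87 had more than 1 probe set, and in 23 of these all probe sets were among the 300. Brightest and dimmest lay at least 2-fold apart for 59 of the 87 and at least 16-fold apart for 17. Over all 1565 genes with more than 1 probe set, 904 had a gap of at least 2-fold. The 87 were chosen by their brightest probe set, so a wider gap was partly built in. A2m, which encodes alpha-2-macroglobulin, a trap for proteases, had 11.49 in all 3 pools at rank 81 and 4.59 as the mean of its dimmest probe set. Igf2, an insulin-like growth factor, had rank 72, and its other 5 probe sets lay at rank 2447 or below. Probe sets marked as shared within a sequence family were 8% of the 300 and 2.24% of all, and those marked as shared by several transcripts were 30.7% and 16.8%.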

How the data were processed

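Total RNA of 3 pools of normal rat Müller cells was measured on 1 Affymetrix array each. The deposited table holds an intensity on a linear scale for every probe set, and the chip type is given per the file headers. How the authors summarised and scaled the probes is not stated there. The deposited experiment records, which hold other entries in text, served only to count chip lots and hybridisation days. Quantile normalisation ran over all 5 arrays with limma 3.58.1 under R 4.3.3. Values were floored at 20 and converted to log2, and 59 of 8799 probe sets, the chip controls, were left out. The scripts were tested on simulated data.

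Symbols came from the platform annotation, and 6985 probe sets matched the RefSeq gene table of GRCr8 with 0 symbols changed. Probe sets with several symbols (308) or none (1426) were not assigned to a gene or counted in a list. The marker and gene lists and the genes to name were chosen with earlier results of these data known. Named genes were the 30 of highest rank (in part), the 6 markers given for these cells, the leading 3 to 5 genes and the lowest gene of each list, the 20 of largest range among the 300 brightest and the 5 by which each pool stood highest and lowest. Rpl31, Rps15, Klf6, Sncg, Gnb3, Opn1sw, Opn1mw, C1qb, Ptprc, Pecam1, Vwf, Egfr, Slc1a1, Slc1a2 and other genes named at the floor were added after their values were seen. A pool tied with another counted as neither highest nor lowest. With 1 group there was no test. Alternatives changed the normalisation, the floor, the summary over pools, the probe set of a gene and the pools included.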

Additional observations from a re-analysis of the deposited data

How the results depend on the processing

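Of 88 values recomputed under 11 alternative settings, 80 stayed within the spread between pools or within 1.5 times a count. Some of the 80 could not have moved. Floors of 1 and 50 lie below every signal of the 300 brightest, so the counts among them were fixed under those settings. The 300 brightest probe sets shared 287 to 300 members with those of each alternative. The number of them with a range of at least 2-fold was 28. It was 287 on the deposited values without scaling, where the arrays differ in overall brightness, and 91 with a common median. With 1 pool left out it was 10 to 21. The median percentile of Müller cell markers was 97.9 when ranked by the lowest array and 91.5 by the mean over the probe sets of a gene. That of microglial and leukocyte markers was 41.5 by the mean over probe sets and 47.5 to 50.3 with 1 pool left out. The cause of these shifts was not tested. No paired analysis was possible because only 1 group was described. Signals near the floor have no order, and 1688 probe sets were at it in all pools.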

Other observations

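Of the 146 genes among the 300 brightest probe sets, 53 belonged to none of the lists. The genes named in this and the next paragraph were chosen after their values were seen. Mif, a secreted cytokine, measured 11.86, 11.92 and 12.30 in pools 1, 2 and 3 at rank 44. Grina, a membrane protein of the same family as Tmbim6, measured 11.64, 11.32 and 11.70 at rank 73. Penk, the precursor of the enkephalin peptides, measured 11.05, 11.40 and 11.56 at rank 93. Psat1, an enzyme of serine synthesis, measured 11.14, 10.80 and 11.13 at rank 136. Lhx2, a homeodomain factor of retinal progenitors and Müller cells, measured 10.35, 10.10 and 10.57 at rank 260. Id3 and Id2, inhibitors of helix-loop-helix factors, had ranks 128 and 244, with Id3 at 11.02, 11.02 and 11.18 and Id2 at 10.54, 10.35 and 10.37.

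Class I antigen presentation genes were also among the 300. B2m, beta-2-microglobulin, measured 10.50, 10.05 and 10.33 at rank 271, and RT1-A 10.63, 10.15 and 10.10 at rank 272, on a probe set shared within its family. Bsg, basigin, which accompanies lactate transporters to the membrane, measured 11.07, 11.16 and 11.23 at rank 121. Mfge8, a secreted protein that binds dying cells, measured 11.61, 10.94 and 11.05 at rank 115, with pool 1 high. Efemp1, a matrix fibulin, measured 10.96, 11.02 and 11.27 at rank 126, and Col2a1, the type II collagen of the vitreous, 10.77, 10.68 and 10.91 at rank 170.

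Both probe sets at ranks 1 and 2, rc_AI639076_f_at and U11071_f_at, have no gene symbol, and their values were 13.53, 13.53 and 13.34 and 13.42, 13.42 and 13.09. Probe sets whose names start with M13100, X05472 or X53581 also have no symbol here, and 10 of these 12 were among the 300 brightest. Pool 1 was highest in all 12, by 0.55 to 1.67 log2 units from the mean of the other pools. They were 10 of the 22 probe sets of the 300 in which pool 1 lay above both other pools by at least 0.5 log2 units. The 3 bright probe sets whose names start with J01435, at ranks 6 to 21, had ranges of only 0.05 to 0.34.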
